A study of Mus musculus with 4 samples.

Results

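The regions described here are 3721 strong peaks of a Foxo1 chromatin precipitation with streptavidin that lay far from every peak of a Foxo1 antibody precipitation. A region was included when it lay on chromosomes 1 to 19, had a streptavidin score at or above a cutoff, and had its centre more than 5000 bases from the centre of every antibody peak. The cutoff on the score lay between 116.99, the highest score left out, and 117.02, the lowest included, and peaks above it are called strong here. The streptavidin list held 57748 peaks, 57096 of them on the autosomes, and 5429 of those were strong. The 3721 regions were therefore 68.5% of the strong autosomal streptavidin peaks. The same distance criterion was met by 86.7% of all autosomal streptavidin peaks. The regions were thus selected on the score and on the distance to antibody peaks, so these quantities, and widths from the same peak calls, are given as descriptions without a test.

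The study mapped Foxo1 in regulatory T cells of the mouse, called nTreg in the labels, by chromatin immunoprecipitation and sequencing, with 4 libraries and 1 library in each group. The antibody library came from wild-type B6 mice and was made with an antibody against the endogenous protein. The streptavidin library came from Foxo1tagBirA mice, in which the endogenous Foxo1 carries biotin, attached by the bacterial ligase BirA. Each had its own input library, of which no read values were analysed here. Method and genotype differed together between the precipitations, so their effects cannot be told apart. Ages, the number of animals behind a library, and the cells in which the ligase was active are not given in the sources used here. A streptavidin precipitation from cells without the tag was not analysed here.

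Foxo1 is a forkhead transcription factor that enters the nucleus when signalling through PI3K and Akt is low and leaves it after phosphorylation by Akt. In T cells it is known for driving genes of lymph node homing and survival, and regulatory T cells depend on it for their function. Precipitation with an antibody relies on recognition of an epitope on the native protein, whereas streptavidin binds the biotin that was added to the tag. The nearest genes and the sequences of the regions were not analysed here, because the gene and sequence tables at hand are of build GRCm38 and the peaks are of build mm9.

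The score, which no file defines, was taken to be the value that the peak caller gave each peak, and it ranks peaks within 1 list. Each list holds only peaks above the authors' threshold, so a region without an antibody peak may still have had antibody signal below it. Read depth is unknown. Replicate error could not be estimated from 1 library per group, and the exact 95% intervals (Clopper-Pearson) cover counting error over peaks only.

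The strong streptavidin peaks far from antibody peaks were mostly of moderate score. Their scores ran from 117.02 to 391 with a median of 134 (quartiles 124.55 and 146), and 2895 of them, or 77.8%, scored under 150. The 1708 strong streptavidin peaks that lay within 5000 bases of an antibody centre had a median score of 166 (quartiles 136 and 244) and reached 2748. Of those nearer peaks, 1395 overlapped an antibody peak by at least 1 base. A score of 200 or more was found in 95 of the far regions, and a score of 300 or more in 6.

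The share of streptavidin peaks far from antibody peaks was nearly level at low scores and fell steeply at high ones. From the lowest scores to the cutoff it was between 86.8% and 90.7% in each of 6 score classes. It was 83.7% (95% interval 82.0 to 85.4) at strong scores under 130, 78.0% (76.0 to 79.9) at 130 to under 150, and 63.6% (60.8 to 66.4) at 150 to under 200. At 200 to under 300 it was 20.4% (16.7 to 24.5), and at 300 or more it was 2.24% (0.826 to 4.81), or 6 of 268 peaks. For comparison, 94.2% of the autosomal span between the outermost peaks lay more than 5000 bases from every antibody centre. That span was not limited to sequence in which peaks can be called, so it is no measure of the share expected for peaks.

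**Figure D1:**
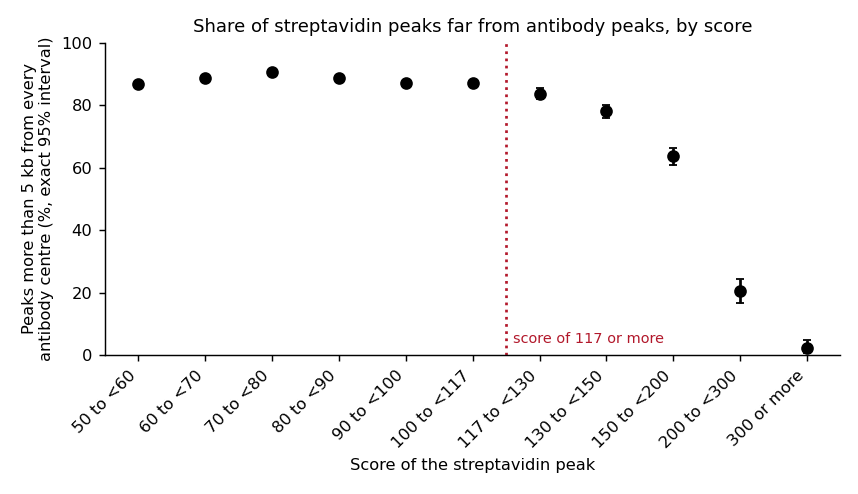
Share of autosomal streptavidin peaks (y axis, percent) whose centre is more than 5 kb from every antibody centre, by score class (x axis); bars are exact 95% binomial intervals over peaks. The share stays between 86.8% and 90.7% below the cutoff, at the dotted line, and drops to 2.24% at scores of 300 or more.

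The 20 highest-scoring far regions lay on 13 chromosomes and scored 241 to 391. The first was at chr8:23303059-23303468 (mm9), 410 bases wide, with a score of 391. Its nearest antibody centre was 26345.5 bases away, and another streptavidin peak was centred 302.5 bases from it. This region sat in a 1 Mb window with 19 antibody and 42 streptavidin peaks, so it was a strong call inside a territory rich in peaks of both methods. The second, chr2:29475064-29475359, scored 360 and was 168000.5 bases from an antibody centre. The third, chr3:63733010-63733429, scored 343 and was 35305 bases from one. The fourth region differed in its surroundings. It lay at chr9:95855044-95855290, scored 330, and its 1 Mb window held 32 streptavidin peaks and no antibody peak.

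The fifth and sixth regions, at chr6:48036444-48036822 and chr4:108952672-108952894, scored 329 and 306. They completed the 6 regions above a score of 300, and lay 38138 and 28383 bases from an antibody centre. Below them came chr3:103201431-103201832 with a score of 294, chr18:34490614-34491035 with 287, chr2:119114194-119114615 with 286 and chr9:66793723-66794013 with 279. Of these, the regions on chromosomes 3 and 2 had antibody centres 12107 and 11541.5 bases away, and those on chromosomes 18 and 9 had them 42264.5 and 48176 bases away. Next were chr11:6595170-6595670 with a score of 276, chr13:31065763-31066106 with 268, chr18:38043211-38043488 with 267 and chr12:4923924-4924245 with 264. The last of these was 9491.5 bases from an antibody centre, whereas the region on chromosome 13 was 181571.5 bases from one.

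The remaining 6 of the 20 included both the nearest and the farthest from an antibody peak. The nearest was chr12:113562273-113562465, which scored 257, had an antibody centre 7853.5 bases away and a streptavidin centre 187 bases away. The farthest was chr7:102175784-102175912, which scored 245, was 129 bases wide and was 979776.5 bases from an antibody centre. The others were chr16:8738752-8739260 with a score of 258, chr14:67569632-67570213 with 252, chr6:28939146-28939245 with 244 and chr6:137138091-137138463 with 241. Among the 20 regions, 12 were 300 bases wide or more and 2 were under 160. An antibody centre lay within 100 kb of 16 of them, and the median distance was 36721.5 bases, shorter than the 72958 bases of all 3721 regions.

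The far regions were narrower than the strong streptavidin peaks near antibody peaks. The far regions had a median width of 211 bases (quartiles 153 and 267, range 89 to 673). The nearer strong peaks had a median width of 346 bases (quartiles 274 and 426). Weaker streptavidin peaks that were equally far from antibody peaks had a median of 219 bases, but with a narrow spread (quartiles 194 and 236). A width under 160 bases, a limit chosen after the widths were seen, was found in 1006 of the far regions, or 27.0% (25.6 to 28.5). The same width was found in 7.31% of all autosomal streptavidin peaks, in 4.04% (3.16 to 5.09) of the nearer strong peaks and in 6.13% (5.91 to 6.35) of the weaker far peaks. At the other end, 533 far regions, or 14.3% (13.2 to 15.5), were 300 bases wide or more, against 66.0% (63.7 to 68.2) of the nearer strong peaks and 3.25% (3.09 to 3.42) of the weaker far peaks.

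**Figure D2:**
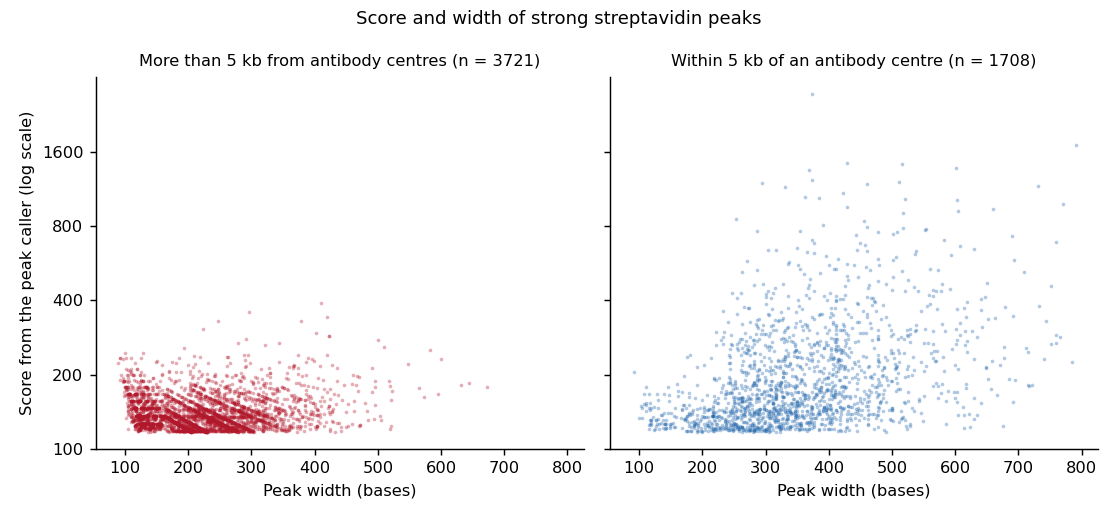
Score (y axis, log scale) against width in bases (x axis) for the 3721 strong streptavidin peaks far from antibody peaks (left) and the 1708 near them (right), 1 point per peak; 14 of the nearer peaks, wider than 800 bases, are not drawn. The far regions crowd at low scores and narrow widths along parallel falling streaks, whereas the nearer peaks spread to higher scores as they get wider.

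Among strong streptavidin peaks the share far from antibody peaks was lower in wide than in narrow peaks. It was 90.8% (86.7 to 94.0) at widths under 120 bases, 95.6% (93.5 to 97.3) at 120 to under 140, 89.1% (85.9 to 91.8) at 200 to under 220, and 76.8% (72.5 to 80.8) at 240 to under 260. It was 48.9% (44.8 to 53.0) at 300 to under 350 bases, 20.05% (16.4 to 24.1) at 400 to under 500, and 7.82% (4.77 to 11.9) at 500 or more. For strong peaks under 160 bases as a whole it was 93.6% (91.9 to 94.97). In weaker streptavidin peaks the share was between 86.4% and 91.1% in each class under 240 bases, then went down to 37.1% (30.7 to 43.8) at 400 to under 500 bases and was 44.4% (27.9 to 61.9) at 500 or more.

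**Figure D3:**
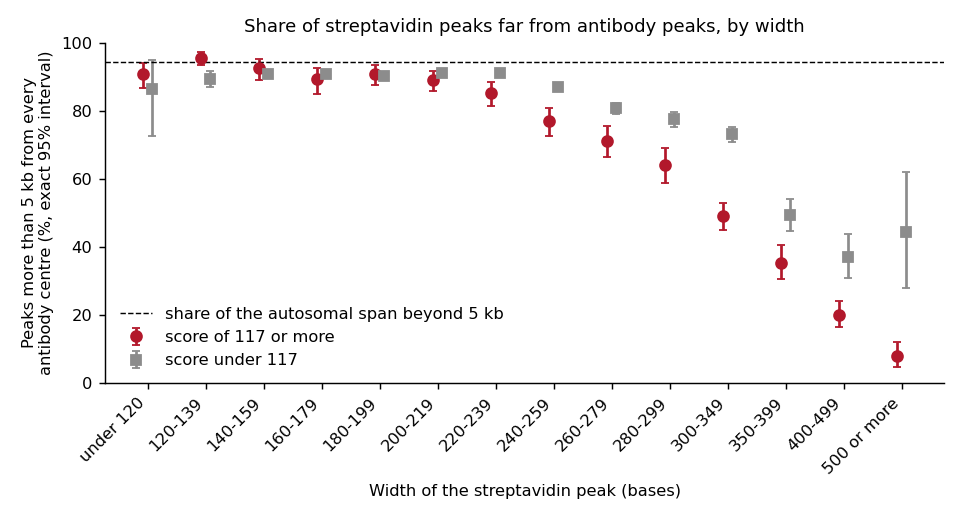
Share of autosomal streptavidin peaks more than 5 kb from every antibody centre (y axis, percent, exact 95% binomial intervals over peaks) by peak width (x axis, bases), for strong peaks (circles) and weaker peaks (squares). The dashed line is the 94.2% of the autosomal span that is equally far, without a limit to sequence in which peaks can be called. The share for strong peaks is 90.8% under 120 bases, 95.6% at 120 to under 140 bases and 7.82% at 500 bases or more.

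The share fell with score in wide peaks and stayed between 92.4% and 95.8% in the 4 score classes of narrow ones. Among strong peaks under 160 bases the far share was 92.4% (89.2 to 94.96) at scores under 130 and 94.7% (91.3 to 97.1) at 150 to under 200. At scores of 200 or more 23 of 24 such narrow peaks were far from antibody peaks. Among strong peaks of 300 bases or more it was 55.9% (49.8 to 61.9) at scores under 130, 35.4% (31.0 to 40.1) at 150 to under 200, and 6.62% (4.68 to 9.04) at 200 or more. Peaks of intermediate width lay between, with 82.8% (79.1 to 86.0) and 15.4% (9.06 to 23.8) in the lowest and the highest of these score classes at 240 to under 300 bases.

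Many of the far regions carried the same score as other far regions. The 3721 regions took 1494 different scores, and 34 scores were each held by 10 or more regions, which made up 1101 regions or 29.6%. Among the 1708 nearer strong peaks, a smaller set, 1 score was held by 10 or more peaks, and 72.8% of them had a score of their own, against 26.1% of the far regions. Such counts are not given for the weaker far peaks or for all autosomal streptavidin peaks. Whether repeated scores are particular to the far regions was therefore not tested. Repeated scores were most frequent among narrow regions. Of the far regions under 160 bases 59.4% had a score held by 10 or more far regions, against 18.5% of those of 160 bases or more and 10.5% of those of 300 bases or more.

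Of the 9 scores held by 40 or more far regions, 5 belonged mostly to narrow regions, and among these scores a higher one went with a smaller minimum width. The score 126.26 was held by 142 far regions of 125 to 157 bases. The score 136.19 was held by 155 far regions of 119 to 162 bases, and 146.31 by 77 regions of 114 to 160 bases. The score 156.62 was held by 48 regions with a smallest width of 109 bases, and 167.11 by 40 regions with a smallest width of 105 bases. The smallest width thus went down at each step from 126.26 to 167.11, whereas the median was 131 bases at the first and 133, 128, 123 and 119 bases at the next 4. Of the strong peaks at these 5 scores, the share far from antibody peaks was highest at 136.19, with 155 of 156 (99.4%, 96.5 to 99.98), and lowest at 167.11, with 40 of 44 (90.9%, 78.3 to 97.5). They were scattered over the genome, and the far regions at 126.26, at 136.19 and at 146.31 lay on all 19 autosomes.

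The other 4 scores belonged to broader regions and did not follow that order. The score 117.97 was held by 83 far regions with a median width of 203 bases, and 135.89 by 40 with a median of 202 bases. The scores 118.04 and 134.52 were held by 72 and 52 far regions with medians of 252.5 and 243 bases. The 9 scores held by 40 or more far regions together made up 709 regions, or 19.1%.

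Score and width were often repeated together. In all, 1865 of the far regions, or 50.1% (48.5 to 51.7), had exactly the score, as deposited, and the width of another strong autosomal streptavidin peak. For the nearer strong peaks the number was 110, or 6.44% (5.32 to 7.71). Limited to scores under 150 and widths under 240 bases, the shares were 65.9% (63.7 to 68.0) of 1878 far regions and 30.5% (24.0 to 37.6) of 187 nearer peaks. Most possible partners are far regions themselves, since these outnumber the nearer peaks. No share of this kind is given for the weaker far peaks or for all autosomal streptavidin peaks. Across the far regions score and width had a Spearman's rho of -0.05 (n = 3721), which combined -0.30 in the 1006 regions under 160 bases with 0.16 in the 2715 wider ones. In the 1708 nearer strong peaks rho was 0.44. These values are over peaks of 1 library that share its depth, and they are descriptions. Why scores and widths recur was not tested.

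The 3 narrowest and 3 widest far regions, picked after their widths were seen, show the range. The narrowest was chr12:112023985-112024073, 89 bases wide with a score of 222. It was followed by chr1:192720264-192720355 and chr7:90193906-90193997, both 92 bases wide, with scores of 190 and 234. The widest were chr2:73224239-73224911 with 673 bases and a score of 177, chr11:96883124-96883767 with 644 bases and 185, and chr11:49944650-49945281 with 632 bases and 181. These 3 narrowest regions scored higher than the 3 widest. Over all far regions the median score was 136 under 160 bases and 140 at 300 bases or more.

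Distances to antibody peaks reached far beyond the cutoff. The median distance of the far regions to the nearest antibody centre was 72958 bases (quartiles 29353 and 179747.5). Only 215 of them lay within 10 kb of an antibody centre, whereas 2295, or 61.7% (60.1 to 63.2), were more than 50 kb away and 1509, or 40.6% (39.0 to 42.2), more than 100 kb away. More than 1 Mb separated 55 regions, or 1.48%, from any antibody centre. That share was 1.27% in the weaker far peaks and 1.12% in all autosomal streptavidin peaks. The weaker streptavidin peaks beyond the same cutoff had a median distance of 66271 bases. Of them, 58.4% (57.9 to 58.8) were more than 50 kb away and 37.9% more than 100 kb away. Over all autosomal streptavidin peaks, including those near antibody peaks, these shares were 50.8% and 33.0%. The strong far regions thus had a slightly longer median distance than the weaker far peaks. Within the far regions, those under 160 bases had a median distance of 78487 bases and those of 300 bases or more 61898.5 bases.

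**Figure D4:**
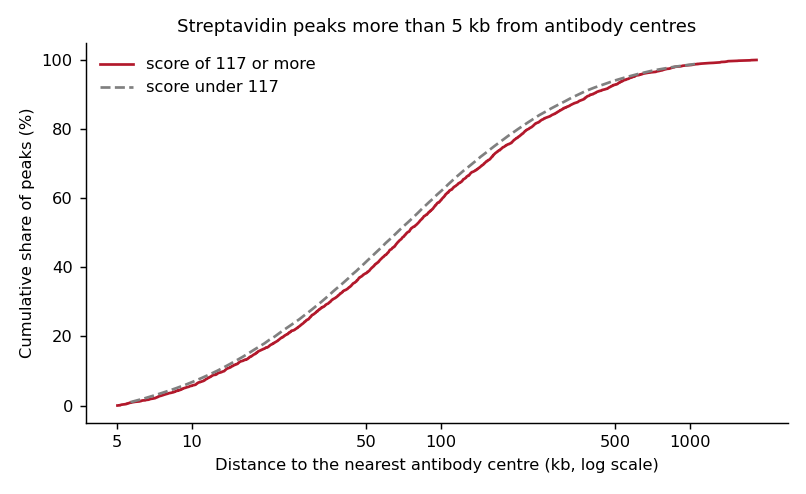
Cumulative share of streptavidin peaks (y axis, percent) against the distance of their centre to the nearest antibody centre (x axis, kb, log scale), for strong (solid) and weaker (dashed) autosomal peaks beyond the 5 kb cutoff. The curve of the strong regions lies slightly to the right, with a median of 72958 bases against 66271 bases.

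The 5 most distant far regions lay in windows without any antibody peak. They were chr16:82711472-82711781, 1843071 bases from an antibody centre, chr2:40737582-40737803, 1816473.5 bases, chr3:48731141-48731354, 1755223.5 bases, chr1:111713597-111713713, 1751590.5 bases, and chr16:68074488-68074628, 1738174 bases. Their scores were 138, 136, 118, 146 and 146 in that order, against a median of 134 for all far regions. Their 1 Mb windows held 6 to 14 streptavidin peaks, below the median of 28 for all far regions.

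The 5 far regions of lowest score had scores of 117.02 to 117.07 and widths of 136 to 231 bases, and the 5 peaks just below the cutoff had scores of 116.97 to 116.99 and widths of 119 to 305 bases. At the distance cutoff the 5 regions just inside were 5018 to 5141 bases from an antibody centre, with scores of 118 to 136. The 5 strong peaks just outside were 4983 to 4998.5 bases from one, with scores of 118 to 172.

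The antibody peaks nearest to the far regions were of ordinary score in their own list. The 3721 regions had 2816 different nearest antibody peaks, counted once per region with a median antibody score of 165, against 167 over all 16473 antibody peaks. These neighbours overlapped a streptavidin peak for 14.1% (13.0 to 15.3) of the regions. For weaker far streptavidin peaks the value was 14.3% (14.0 to 14.6), and it was 21.9% (21.2 to 22.5) over all antibody peaks.

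The third deposited list gives positions only and is attached to the antibody input library, although its name refers to both methods. It had no interval overlapping a far region. That is 0 of 3721, and it follows almost wholly from the distance rule. The upper limits for counting error, 0.0806% by the limit of 3 counts and 0.0991% by the exact interval, therefore carry no further meaning. Of all autosomal streptavidin peaks 6.27% overlapped the list, and of the nearer strong peaks 82.1% (80.2 to 83.9) did. The median distance from a far region to the centre of an interval of that list was 382276.5 bases, and 152 regions, or 4.08% (3.47 to 4.77), were within 20 kb of one. The weaker far peaks had nearly the same share, 4.15% (3.97 to 4.34).

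Close streptavidin neighbours were about as frequent around the weaker far peaks as around the far regions. Another streptavidin centre lay within 1 kb of 4.68% (4.02 to 5.40) of them, against 5.98% of all autosomal streptavidin peaks, 4.51% (4.32 to 4.71) of the weaker far peaks and 19.5% (17.6 to 21.5) of the nearer strong peaks. A streptavidin centre lay within 10 kb of 39.6% (38.1 to 41.2) of the far regions, 41.7% of the weaker far peaks and 43.7% of all autosomal streptavidin peaks. For the nearer strong peaks the share was 58.6%. The nearest streptavidin centre was a median of 14052.5 bases from a far region. That median was 12833 bases for the weaker far peaks, 12200.5 bases for all autosomal streptavidin peaks and 7342.5 bases for the nearer strong peaks. The nearest other far region was a median of 196184.5 bases away. A second far region lay within 10 kb of 157, or 4.22% (3.60 to 4.92), and the other 3564 had none that close. This count covers far regions alone, and no such share is given for other sets.

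Far regions joined at up to 10 kb formed 76 groups, and 5 of the groups held 3 regions. They lay at chr3:122129735-122138702, chr19:54850626-54861142, chr6:112158393-112169138, chr3:146106339-146118706 and chr5:97613458-97626697. Their highest scores were 143, 141, 146, 175 and 171 in that order, so the groups were not built around the highest-scoring regions. The closest pair was at chr5:145529102-145529752, with centres 357.5 bases apart and scores of 139 and 145, 81816.5 bases from an antibody centre.

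Far regions were present in most parts of the autosomes. Of 2420 windows of 1 Mb, 1833 held at least 1 and 83 held 5 or more, with a median of 1 per window. Such counts depend on the number of regions, and none is given for the weaker far peaks or for all streptavidin peaks. Far regions outnumbered the nearer strong peaks, 3721 to 1708, and 739 windows held both. In 1094 windows far regions were the only strong streptavidin peaks, and these windows held 2163 regions, or 58.1%. Of those 1094 windows, 164 had no antibody peak, so the rule left almost no room for a nearer strong peak there. The window with the most far regions was chr9:99000001-100000000, with 9 far regions, 2 nearer strong peaks and 7 antibody peaks. Windows with 8 were chr1:35000001-36000000, chr2:130000001-131000000, chr14:47000001-48000000 and chr17:79000001-80000000. Antibody peaks in those 4 windows numbered 2, 14, 15 and 18, so a high number of far regions occurred with few and with many antibody peaks.

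The number of far regions per window was lowest in windows without an antibody peak and highest in those with 10 to 19. Windows without an antibody peak held a mean of 0.867 far regions, windows with 1 to 4 held 1.45, with 5 to 9 held 1.76, with 10 to 19 held 1.83, and with 20 or more held 1.43. Over the same classes the nearer strong peaks went from 0 to 2.93 per window, and all streptavidin peaks from 9.84 to 36.4. The rise of the nearer strong peaks is in part fixed by the rule, since each needs an antibody centre within 5000 bases. The far regions made up 8.81% of the streptavidin peaks in windows without an antibody peak and 3.93% in windows with 20 or more. Part of that fall is fixed by the rule, since more sequence lies within 5000 bases of an antibody centre where antibody peaks are dense.

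**Figure D5:**
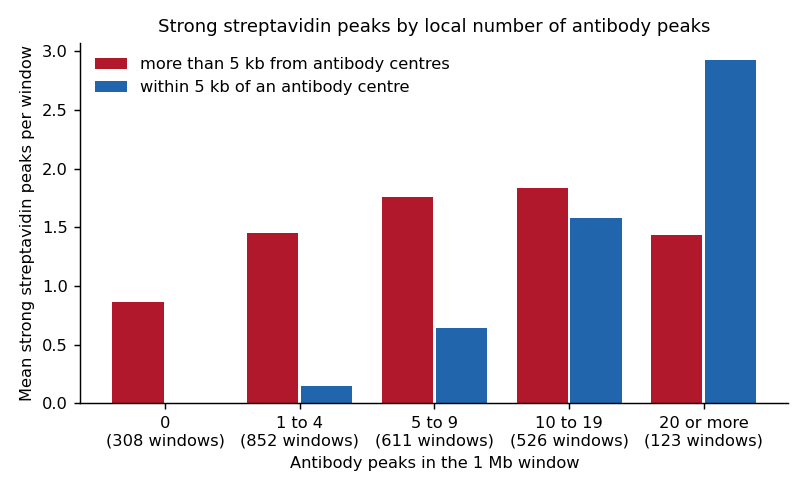
Mean number of strong streptavidin peaks per 1 Mb autosomal window (y axis) by the number of antibody peaks in the window (x axis, with the number of windows), for peaks more than 5 kb from antibody centres and peaks within 5 kb of one. The far regions stay between 0.867 and 1.83 per window, and the nearer peaks rise from 0 to 2.93. That rise is in part fixed by the rule, since each nearer peak needs an antibody centre within 5 kb.

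Windows without an antibody peak held 267 of the far regions, or 7.18% (6.37 to 8.05), against 5.31% of all autosomal streptavidin peaks and 6.04% (5.82 to 6.26) of the weaker far peaks. They were spread over 164 of 308 such windows. The excess over all autosomal streptavidin peaks is in part fixed by the rule, since almost any streptavidin peak in such a window meets the distance criterion. Of the far regions under 160 bases 9.05% were in such windows, and of those of 300 bases or more 3.75% were.

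Per chromosome, far regions had a smaller range of density than antibody peaks. Chromosome 15 had the fewest, 1.25 per Mb, and chromosome 2 the most, 1.73 per Mb. Antibody peaks had their lowest density on chromosome 3, with 5.03 per Mb, and their highest on chromosome 11, with 10.4. The share of strong streptavidin peaks that were far was lowest on chromosome 19, at 59.4% (51.2 to 67.2), and on chromosome 11, at 60.9% (55.4 to 66.2). It was highest on chromosome 3, at 77.8% (73.0 to 82.1), and on chromosome 18, at 77.5% (70.9 to 83.3). Across the 19 autosomes this share had a Spearman's rho of -0.92 with antibody density, and the density of far regions had a rho of -0.23. Both measures use the antibody list, so the first relation is in part a consequence of the rule. The share of far regions under 160 bases went from 22.2% on chromosome 17 to 32.8% on chromosome 10. On chromosome X, outside the rule, 51 of 77 strong streptavidin peaks, or 66.2% (54.6 to 76.6), were equally far from antibody peaks.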

How the data were processed

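The deposited data were 3 lists of intervals in mm9. The submitters' processing notes name CASAVA 1.4, the aligner Bowtie 0.12.7 and the peak caller MACS 1.4, without settings. The antibody and streptavidin lists give positions and a score deposited by the authors for each peak, which no header defines; a false discovery rate of 0.01 appears in the names of both. The sources used here do not give whether libraries were pooled or which input was the control. Depth is unknown.

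Other values deposited by the authors were the positions in the 3 lists. Centres were the mean of the start and end columns, and printed coordinates count from 1. Distances, overlaps of 1 base, classes and windows of 1 Mb were computed with Python 3.11.15, NumPy 2.4.6, pandas 2.3.3 and SciPy 1.17.1, and the functions were tested on simulated data. Autosomal span runs between the outermost peaks of the 3 lists. Regions named were the 20 of highest score, the 5 farthest from antibody peaks, 5 on each side of both cutoffs and the closest groups; the rule for regions near listed genes could not be applied. The regions and lists were chosen with earlier results of these data known. No test was made, since the rule used scores and distances and each group has 1 library.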

Additional observations from a re-analysis of the deposited data

How the results depend on the processing

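The number of far regions stayed within 1.5 times of 3721 under 8 of 10 alternatives and was 8058 at scores of at least 100 and 95 at scores of at least 200. Their share among strong peaks, 68.5%, was 77.5% at scores of at least 100, 13.5% at 200, 72.2% at a distance of 1000 bases, 64.6% at 10000 bases, 74.8% against the higher-scoring 50% of antibody peaks, 73.5% without the widest 1% of streptavidin peaks and 62.4% without peaks under 160 bases, the last an alternative chosen after seeing the data. It stayed in its interval when edges were used, chromosome X was added or peaks within 1000 bases were joined. The median width of 211 bases was 263 at scores of at least 200, 216 against the higher-scoring antibody peaks, 216 with peaks joined and 240 without peaks under 160 bases, and stayed within its interval under the other 6. The share in windows without an antibody peak, 7.18%, was 5.26% at scores of at least 200. That value rests on 5 of 95 regions, and its interval of 1.73 to 11.9 includes 7.18%. Against the higher-scoring antibody peaks the share was 15.0%, where fewer antibody peaks leave more windows empty. No far region had a third-list centre within 1000 bases, which also follows almost wholly from the distance rule. Apart from these constructions the cause was not tested. No paired analysis was possible because each group has 1 library, and none could be left out. Alternatives on motifs and transcription starts were not run without an mm9 genome. Depth is unknown, so signal below the authors' threshold could not be measured.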
